A study of Rattus norvegicus with 12 samples.

Results

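The mitosis and spindle genes described here are 57 genes whose products carry out or control cell division, from the kinases that start mitosis to the proteins that cut the daughter cells apart. They were listed by name and found through the gene names that the array files give, with older names brought to current symbols. Of the 57, 56 had at least 1 probe and 53 were measured, among 17753 genes tested in all. A gene counted as measured where 1 of its probes stood well above background, in the forskolin or the reference channel, on every array of some time point. Nek2, a centrosome kinase, had no probe under its name. Cenpe, a kinetochore kinesin, was above background on 1 array of 12 in either channel, and Nusap1 and Ncapg were above background on none.

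F11 cells descend from a fusion of sensory neurons of rat dorsal root ganglia and a mouse neuroblastoma, so their transcripts come from both species, while the probes are rat; how far mouse transcripts bound them was not tested. After 3 h in 0.5% serum they received 10 µM forskolin, an activator of adenylyl cyclase that raises cAMP, for 2, 4, 24 or 48 h, with 3 arrays for each time. Every array set such RNA (green channel) against RNA of F11 cells that had the same 3 h in low serum and no forskolin (red channel), the common reference. No unstimulated sample of a later time was used here, so forskolin and time in culture cannot be told apart, and neither can time and array position, because each time point lay at the same position on all 3 slides. The dyes were not swapped on any array, so a dye effect of a probe cannot be told apart from forskolin in ratios against the reference. Such an effect cancels between times only where it is equal on all arrays. All values below are log2 ratios of forskolin over reference unless another quantity is named, and errors are standard deviations over the 3 arrays of a time point. The labels do not tell whether the 3 samples of a time were grown apart, so a p-value covers only the spread among them, which may be technical. The reference counts as 1 control sample whose own spread is left out.

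Mitosis begins when Cdk1, bound to a cyclin, is switched on by Cdc25 phosphatases. The spindle then captures chromosomes through kinetochores, and the spindle checkpoint holds back the anaphase-promoting complex (APC/C), a ubiquitin ligase, until every chromosome is attached. Many of these genes are transcribed mainly in late S, G2 and M phase, under B-Myb, FoxM1 and the MuvB complex, and are low in cells that leave the cycle, as neurons do.

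On the 12 arrays, 19889 to 21973 green and 19504 to 23285 red spots of 43379 non-control spots were well above background. Of 12 neuron markers 11 were measured, Pou4f1 being the exception. At 48 h, 9 of the 11 were called higher and none lower, against 26.9% and 30.3% of all genes. At 24 h, 6 were called higher and 4 lower, against 24.1% and 29.2% of all genes. At 4 h these counts were 5 and 4, against 19.5% and 30.2%. Of the glial, fibroblast, leukocyte and endothelial markers, 3 of 8, 4 of 7, 4 of 6 and 3 of 5 were measured, and those not above background included Gfap, Mbp, S100b, Fabp7, Col3a1, Dcn, Lum, Cd3e, Itgam, Pecam1 and Tek. Among those measured, 2 glial and 2 fibroblast markers were called lower at 48 h. Col1a2, a fibroblast marker, and Vwf, an endothelial one, were called higher (0.41 and 0.98). The part of these markers in the results below was not tested.

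The members fell in steps with time under forskolin. At 2 h, 16 of 53 members were called lower and 6 higher (limma, Benjamini-Hochberg adjusted p under 0.05), against 18.4% of all genes lower and 9.99% higher, 28.3% in either direction, and the members' median was -0.03, against -0.02 over all genes. At 4 h, 31 members were called lower and 6 higher, against 30.2% and 19.5% of all genes, 49.6% together, and the medians were -0.18 for the members and -0.03 for all genes. At 24 h, 50 members were lower and 1 was higher, against 29.2% and 24.1% of all genes (53.3% together), with medians of -0.64 and -0.02. At 48 h, 50 were lower and none higher, against 30.3% and 26.9% of all genes (57.2% together), with medians of -1.03 and -0.02. Under median centring, which moved the median of all genes to -0.58 at 2 h and at 4 h, 48 members were lower and none higher at each of these times, and 75.9% and 76.3% of all genes were lower. Median centring takes only the array's median off the ratios, in place of loess, and so leaves in any trend with probe brightness. Leaving out the third 2 h array reduced the calls at 2 h to 11 lower and none higher.

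Many genes of the array were called at each time, so sizes are given beside the calls. A fall of at least 2-fold was called in 1 member at 4 h, 14 at 24 h and 28 at 48 h, against 0.389%, 0.676% and 1.29% of all genes. On single arrays, the members' median lay between -0.09 and -0.03 on the 2 h arrays, between -0.28 and -0.19 at 4 h, between -0.68 and -0.60 at 24 h and between -1.12 and -1.01 at 48 h. Channel levels were read after a further scaling that gave every array the same distribution of mean log2 intensity. On that scale the reference channel stayed near 1 level while the forskolin channel dropped, and part of that steadiness may come from the scaling. In members, the median log2 intensity of the forskolin channel was 8.25 to 8.51 at 48 h, against 9.47 to 9.54 in the reference channel of the same arrays. In bulk RNA, fewer dividing cells and less RNA per cell cannot be told apart.

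**Figure D1:**
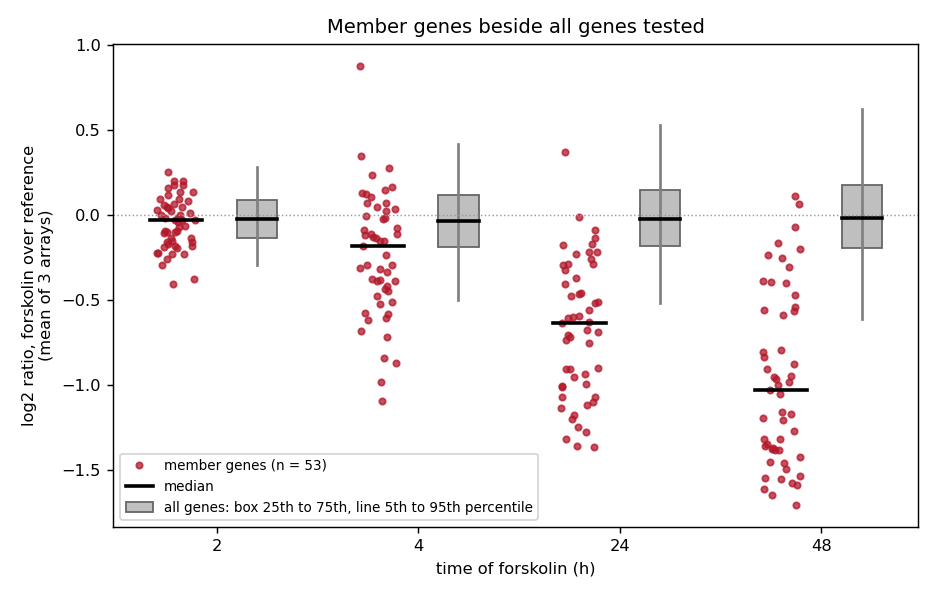
Log2 ratio of forskolin over reference (mean of 3 arrays, vertical axis) for the 53 measured members (red points, black bar at the median) and for all genes tested (grey box, 25th to 75th percentile; line, 5th to 95th percentile), at 2, 4, 24 and 48 h. The members' median moves to -0.64 at 24 h and -1.03 at 48 h, while that of all genes stays near 0.

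Successive times differed too. Between 4 h and 2 h, 24 members were called lower and 2 higher, against 10.1% and 5.58% of all genes (15.7% together), and this count was 16 lower and 1 higher without the third 4 h array. Between 24 h and 4 h, 41 were lower and 1 was higher, against 17.8% and 21.0% (38.8% together). Between 48 h and 24 h, 34 were lower and none higher, against 6.78% and 8.02% (14.8% together). Under median centring the members called lower numbered 4 for 4 h against 2 h, 20 for 24 h against 4 h and 7 for 48 h against 24 h, and 1.37%, 3.87% and 0.637% of all genes were called lower. With 24 h and 48 h averaged against 2 h and 4 h, 48 were lower and 1 was higher, against 24.2% and 26.2% (50.4% together). In 40 of 53 members all 3 arrays at 48 h lay below all 3 at 24 h, which held for 15.0% of all genes. The 24 h arrays lay below those at 4 h in 40 members, against 23.3% of all genes, and the 4 h arrays below those at 2 h in 30, against 18.4%. In 24 members the arrays of each time lay wholly below those of the time before, against 1.07% of all genes. The successive comparisons share arrays and are not independent of each other.

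In the 41 members that were lower by at least 0.5 at 48 h, the change at 24 h was 39.2% to 95.3% of that at 48 h on the log2 scale, with a median of 70.4%. At 4 h the median share was 22.8%. At 4 h it was 77.1% in Cdc20 and 76.8% in Espl1, the highest, but 6.55% in Cdk1 and 7.64% in Ccna2, so members fell at different times, as the map of all arrays shows.

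**Figure D2:**
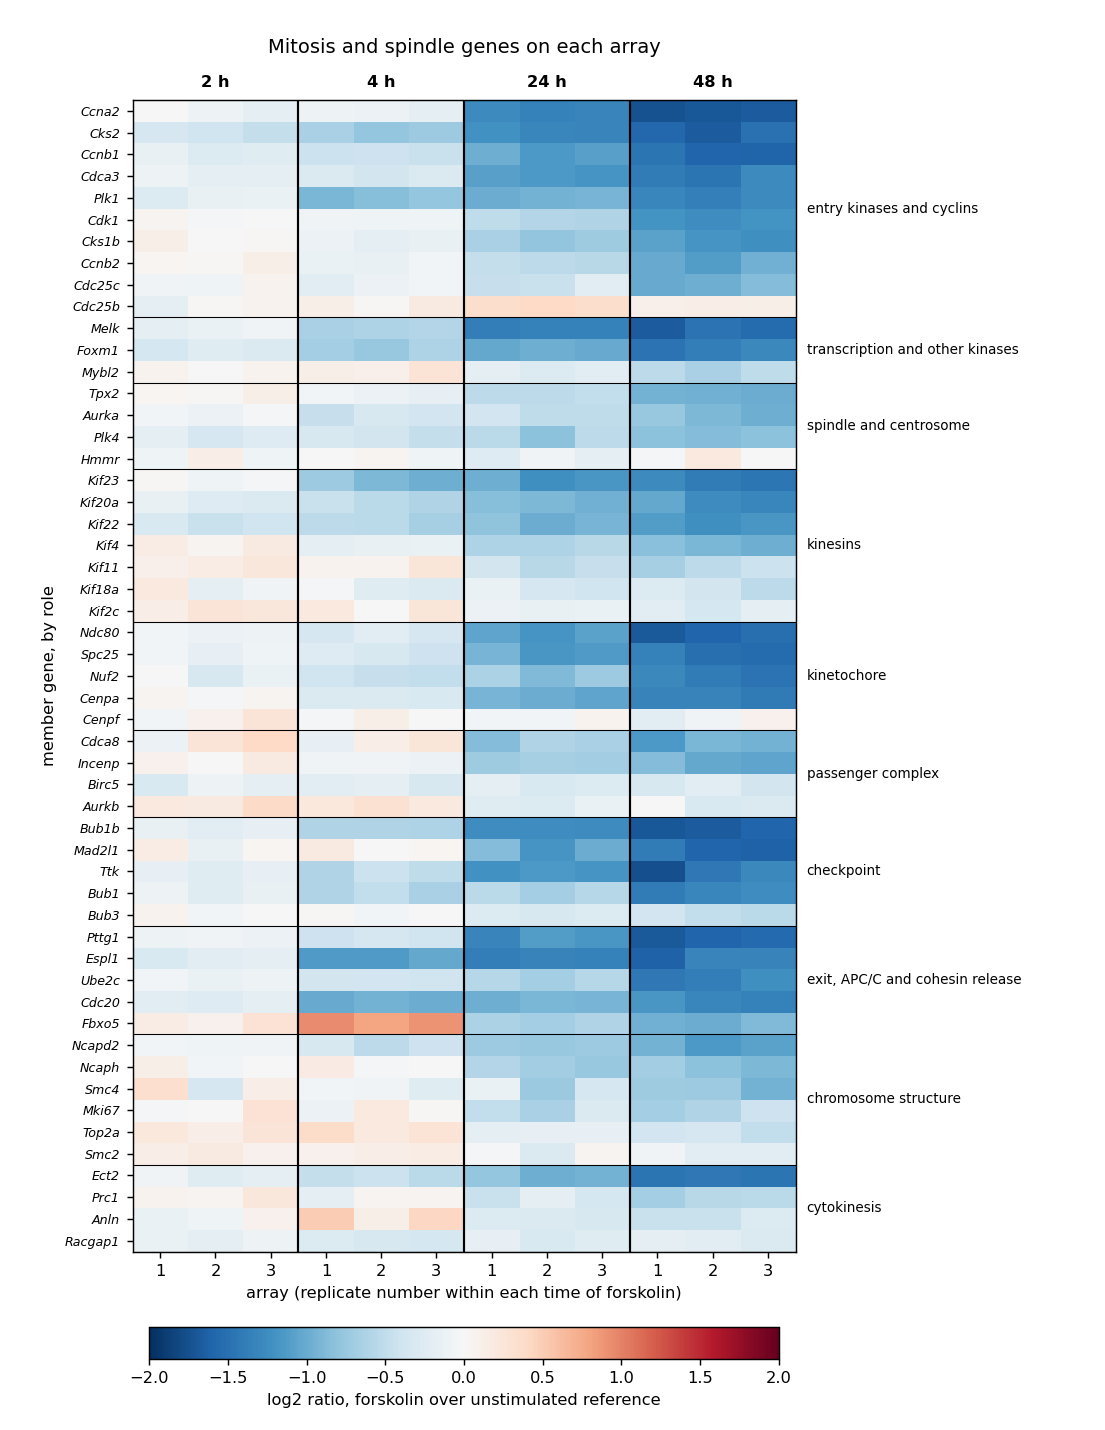
Log2 ratio of forskolin over reference (colour scale, blue lower, red higher) on each of the 12 arrays (columns, grouped by time of forskolin) for the 53 measured members (rows, grouped by role and sorted by the 48 h mean). Espl1, Cdc20, Plk1 and Kif23 are already blue at 4 h, Fbxo5 is red at 4 h and blue later, and Cdc25b is red at 24 h.

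At all 4 times, 16 members were called lower, namely Ccnb1, Plk1, Plk4, Bub1, Bub1b, Cdc20, Cdca3, Kif20a, Kif22, Birc5, Ect2, Racgap1, Espl1, Cks2, Melk and Foxm1, although Birc5 lay above the median of all genes at each of them under median centring. These calls are those of the brightest kept probe, and Birc5 was kept only through its reference channel, which favours a lower call. At 2 h, other kept probes of Bub1b (-0.03), Ect2 (-0.09), Ccnb1 (-0.15) and Racgap1 (-0.04 and 0.14) were not called, while that of Plk1 was (-0.19). The other Ect2 probe was not called at 4 h either (-0.10). A further 14 were first called at 4 h and stayed lower at 24 h and 48 h: Ccna2, Ccnb2, Aurka, Kif23, Tpx2, Cenpa, Ttk, Ndc80, Nuf2, Spc25, Ncapd2, Pttg1, Ube2c and Cks1b. The other kept probe of Ttk was not called at 4 h (0.003). Kif4, a chromokinesin, was higher at 2 h, though at -0.12 relative to the median of all genes under median centring, and lower from 4 h. Another 11 were not called at 2 h or 4 h and were lower at 24 h and 48 h: Cdk1, Bub3, Mad2l1, Cdca8, Kif18a, Prc1, Incenp, Smc4, Ncaph, Cdc25c and Mki67. Higher at 4 h and lower at 24 h and 48 h were 6 members, Aurkb, Kif2c, Top2a, Anln, Fbxo5 and Mybl2. Under median centring 5 of them turned below 0 at 4 h and none fell below the median of all genes. That setting leaves in any trend with probe brightness, so it cannot decide on these rises. The other members were Kif11, Smc2, Hmmr, Cdc25b and Cenpf, and Cenpf, a kinetochore protein, was called at no time. The share of all genes with each of these patterns was not counted, so the patterns are not read as particular to the members.

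Most measured members were lower at 24 h and 48 h, though not on the same course. The promoters of these genes are shown because elements for cell cycle control are well described there. The CCAAT box is bound by NF-Y, and TTTGAA, the cell cycle genes homology region, by the MuvB complex. Windows of 300 bases, from 250 before to 50 after the start, were given for 50 members by RefSeq (GRCr8). Ccna2, Aurkb, Tpx2, Racgap1, Incenp, Ube2c and Foxm1 were not matched. The 6 windows below are those of members with the late fall (Cdk1), the early fall (Cdc20, Cks2), a large late fall (Pttg1), the rise at 4 h (Fbxo5) and the rise at 24 h (Cdc25b). They lie at chr20:19265043-19265342 (plus strand), chr5:137255750-137256049 (minus), chr17:13727470-13727769 (minus), chr10:28406277-28406576 (minus), chr1:44607732-44608031 (minus) and chr3:138859923-138860222 (plus). Each is written 5′ to 3′ on the strand of the gene, and capitals mark CCAAT or its reverse complement ATTGG, and TTTGAA or its reverse complement TTCAAA.
Cdk1: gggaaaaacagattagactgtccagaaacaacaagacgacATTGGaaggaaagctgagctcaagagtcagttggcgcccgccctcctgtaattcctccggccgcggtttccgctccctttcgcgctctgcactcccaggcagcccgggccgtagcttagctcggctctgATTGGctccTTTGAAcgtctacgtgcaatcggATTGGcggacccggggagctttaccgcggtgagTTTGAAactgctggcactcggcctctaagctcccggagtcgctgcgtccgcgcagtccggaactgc
Cdc20: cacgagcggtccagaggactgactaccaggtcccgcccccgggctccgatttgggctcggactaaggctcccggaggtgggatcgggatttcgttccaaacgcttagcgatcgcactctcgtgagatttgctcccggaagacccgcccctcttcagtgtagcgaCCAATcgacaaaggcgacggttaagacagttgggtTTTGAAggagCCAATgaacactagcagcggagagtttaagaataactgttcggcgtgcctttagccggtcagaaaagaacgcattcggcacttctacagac
Cks2: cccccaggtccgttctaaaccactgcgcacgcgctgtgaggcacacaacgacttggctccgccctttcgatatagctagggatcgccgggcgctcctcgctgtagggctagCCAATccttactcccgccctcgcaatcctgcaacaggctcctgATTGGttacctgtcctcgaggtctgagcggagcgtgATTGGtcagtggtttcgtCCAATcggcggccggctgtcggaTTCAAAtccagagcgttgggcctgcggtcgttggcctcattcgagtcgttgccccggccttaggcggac
Pttg1: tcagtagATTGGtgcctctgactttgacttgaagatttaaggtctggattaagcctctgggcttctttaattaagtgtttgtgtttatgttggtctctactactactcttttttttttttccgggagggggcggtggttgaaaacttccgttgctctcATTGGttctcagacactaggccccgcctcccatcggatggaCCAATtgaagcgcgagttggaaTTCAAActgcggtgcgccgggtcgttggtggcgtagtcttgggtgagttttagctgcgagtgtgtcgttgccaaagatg
Fbxo5: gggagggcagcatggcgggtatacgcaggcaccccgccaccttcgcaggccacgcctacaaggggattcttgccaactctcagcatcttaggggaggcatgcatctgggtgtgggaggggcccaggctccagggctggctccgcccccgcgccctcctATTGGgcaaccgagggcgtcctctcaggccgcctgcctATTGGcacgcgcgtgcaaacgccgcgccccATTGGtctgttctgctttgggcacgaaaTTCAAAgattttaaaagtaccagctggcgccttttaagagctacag
Cdc25b: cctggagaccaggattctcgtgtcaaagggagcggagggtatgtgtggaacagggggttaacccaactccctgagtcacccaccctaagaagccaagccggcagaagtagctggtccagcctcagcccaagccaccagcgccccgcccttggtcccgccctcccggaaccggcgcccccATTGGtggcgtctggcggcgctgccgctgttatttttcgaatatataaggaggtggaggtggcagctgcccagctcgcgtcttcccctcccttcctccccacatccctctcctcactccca

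CCAAT on either strand was present in 37 of the 50 member windows (74.0%), against 37.5% of all 33469 windows and 38.0% of those of genes with a probe. TTTGAA on either strand was present in 35 (70.0%), against 18.3% and 15.0%. Both were present in 29 (58.0%), against 7.41% and 6.15%. In Cdca8 and Mki67 a TTTGAA match runs into an ATTGG match and shares a base with it. The median base composition was 58.7% G and C in members and 58.3% in genes with a probe. Cdk1 carried 3 CCAAT and 2 TTTGAA matches, Cdc20 2 and 1, Cks2 4 and 1, and Pttg1 3 and 1. In Fbxo5, which was higher at 4 h, there were also 3 and 1, and in Cdc25b 1 CCAAT and no TTTGAA. Of the members called lower at 4 h that had a window, 73.1% held CCAAT and 76.9% TTTGAA, against 70.0% and 65.0% of the other measured members. A match describes letters in a window, and binding was not measured.

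Among the kinases and cyclins of mitotic entry, 9 of 10 members were lower at 24 h and 1 was higher, against 29.2% and 24.1% of all genes. Ccna2, a cyclin of S and G2 phase, stood at -1.27, -1.36 and -1.32 at 24 h and at -1.75, -1.70 and -1.67 at 48 h. At 4 h its 3 arrays gave -0.10, -0.12 and -0.18, so that nearly all of its fall came after 4 h, with no overlap between the times. The difference between 24 h and 4 h was -1.19 ± 0.06 (standard error; limma adjusted p = 4.1e-09).

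Ccnb1, the main mitotic cyclin, was at -0.43, -0.42 and -0.45 at 4 h, at -0.97, -1.15 and -1.09 at 24 h and at -1.46, -1.58 and -1.60 at 48 h. On this brighter probe it fell at every step, and the arrays of successive times did not overlap. Its dimmer probe gave means of -0.15, -0.16, -0.25 and -0.61 at 2, 4, 24 and 48 h. Cdk1, the kinase that these cyclins activate, followed later: its arrays read -0.06, -0.08 and -0.09 at 4 h, -0.50, -0.58 and -0.60 at 24 h, and -1.19, -1.24 and -1.20 at 48 h. Its change between 48 h and 24 h was -0.65 ± 0.05 (standard error; limma adjusted p = 2.7e-06), beside -0.48 between 24 h and 4 h.

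Cks2, a small Cdk-binding subunit, was already lower at 2 h, with -0.33, -0.40 and -0.48. It then read -0.65, -0.77 and -0.73 at 4 h, -1.21, -1.31 and -1.32 at 24 h and -1.57, -1.67 and -1.49 at 48 h. Its relative Cks1b was not called at 2 h (0.05) and reached -0.72 at 24 h and -1.16 at 48 h. Plk1, the polo kinase, gave -0.27, -0.14 and -0.13 at 2 h, -0.91, -0.85 and -0.77 at 4 h, -0.99, -0.95 and -0.93 at 24 h, and -1.31, -1.37 and -1.27 at 48 h. Most of its fall was thus in place by 4 h, and the step between 24 h and 4 h was not called (-0.11, limma adjusted p = 0.17). Cdca3, a trigger of mitotic entry, was at -1.08, -1.15 and -1.18 at 24 h, below its 4 h arrays of -0.28, -0.36 and -0.29.

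Cdc25b, a phosphatase that activates Cdk1, was the 1 member called higher at 24 h. Its arrays gave 0.35, 0.40 and 0.36 at 24 h, against 0.12, 0.02 and 0.17 at 4 h and 0.11, 0.13 and 0.11 at 48 h. The rise at 24 h was 0.37 ± 0.03 (n = 3; limma adjusted p = 1.4e-05), under median centring it was -0.0054, or 0.44 above the median of all genes, and at 48 h it was not called (limma adjusted p = 0.052). The part of probe brightness in the median-centred values was not tested. Cdc25c, the related phosphatase, went the other way, at -0.37 at 24 h and -0.95 at 48 h.

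**Figure D3:**
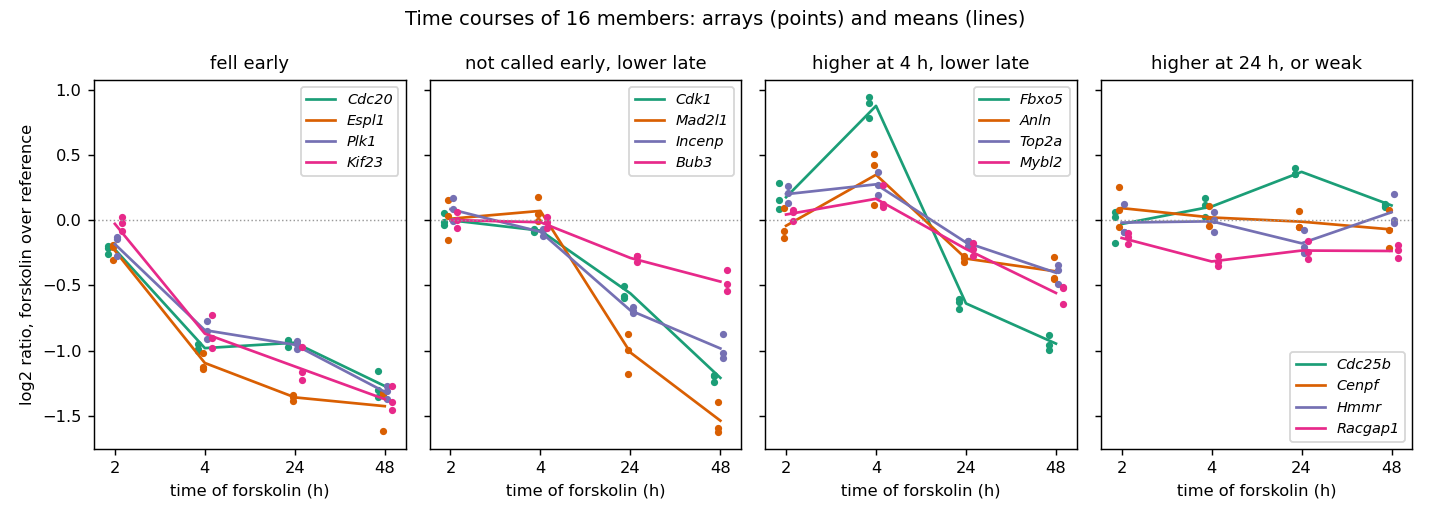
Log2 ratio of forskolin over reference (vertical axis) at 2, 4, 24 and 48 h (horizontal axis, not to scale) for 16 members, with points for single arrays and lines through the means. Cdc20, Espl1, Plk1 and Kif23 drop by 4 h, Cdk1, Mad2l1, Incenp and Bub3 after it, Fbxo5 rises to 0.88 at 4 h before it falls, and Cdc25b peaks at 0.37 at 24 h.

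The transcription factors of the list differed in their early course. Foxm1, an activator of G2 and M genes, read -0.35, -0.24 and -0.29 at 2 h, -0.67, -0.76 and -0.61 at 4 h, -1.03, -0.98 and -1.003 at 24 h, and -1.48, -1.38 and -1.28 at 48 h. Mybl2, which encodes B-Myb, was slightly higher at 4 h (0.16) and then lower, at -0.22 at 24 h and -0.56 at 48 h. Melk, a kinase of dividing cells, gave -1.38, -1.35 and -1.35 at 24 h, a mean of -1.36 ± 0.02 (n = 3; limma adjusted p = 2e-11).

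All 4 measured genes of the spindle poles and centrosomes were lower at 24 h, with a median of -0.49. At 48 h 3 of 4 were, with a median of -0.86, and the shares of all genes were 29.2% and 30.3%. Plk4, the kinase of centriole duplication, read -0.18, -0.33 and -0.26 at 2 h and -0.82, -0.86 and -0.82 at 48 h, where 1 of 3 forskolin signals was above background and the mean on the scanner's processed signals was -2.44. Tpx2, which nucleates spindle microtubules, reached -0.97 at 48 h and Aurka, which it activates, -0.88. Hmmr, which binds the spindle and hyaluronan, was -0.18 at 24 h, though 0.21 above the median of all genes under median centring, and 0.06, not called, at 48 h.

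Of the 7 measured kinesins, all were lower at 24 h and at 48 h, against 29.2% and 30.3% of all genes. Kif23, the motor of centralspindlin at the cleavage plane, was at 0.02, -0.08 and -0.02 at 2 h and at -0.72, -0.90 and -0.98 at 4 h. It fell by 0.84 between these times (limma adjusted p = 1.1e-05) and gave -0.97, -1.22 and -1.17 at 24 h and -1.27, -1.39 and -1.45 at 48 h. Kif22, a chromokinesin, was already lower at 2 h, at -0.30, -0.44 and -0.40, and reached -1.12, -1.23 and -1.16 at 48 h. Kif20a, which acts in cytokinesis, was at -0.90 at 24 h and -1.19 at 48 h. In contrast, Kif11, the motor that pushes the poles apart, was higher at 2 h (0.16) and -0.54 at 48 h. Kif2c, a microtubule depolymerase, read 0.13, 0.25 and 0.22 at 2 h and -0.21, -0.35 and -0.19 at 48 h.

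At the kinetochore, 4 of the 5 measured members were lower at 24 h and 48 h, against 29.2% and 30.3% of all genes. Each of the 4 had a mean of at least 2-fold lower at 48 h. Ndc80, the subunit that grips microtubules, stood at -1.06, -1.18 and -1.06 at 24 h and at -1.67, -1.59 and -1.50 at 48 h. Its partners in the same complex were close to it: Spc25 read -0.92, -1.16 and -1.13 at 24 h and -1.35, -1.50 and -1.53 at 48 h. Nuf2 had -0.64, -0.89 and -0.73 at 24 h and -1.28, -1.40 and -1.47 at 48 h. For Nuf2 the step between 48 h and 24 h was -0.63 ± 0.09 (standard error; limma adjusted p = 0.00021), beside -0.30 between 24 h and 4 h. Cenpa, the histone of the centromere, was at -0.99 at 24 h and -1.36 at 48 h.

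All 5 spindle checkpoint genes were called lower at 24 h and 48 h, against 29.2% and 30.3% of all genes. Their medians were -1.01 and -1.49. Bub1b, which encodes BubR1, an inhibitor of Cdc20, read -0.60, -0.59 and -0.61 at 4 h, -1.24, -1.25 and -1.26 at 24 h and -1.70, -1.66 and -1.58 at 48 h. Its 3 arrays lay close together, with a standard deviation of 0.01 at 24 h. Ttk, the kinase that recruits the other checkpoint proteins, gave -1.21, -1.14 and -1.18 at 24 h and spread more at 48 h, with -1.76, -1.43 and -1.29. Bub1, a kinase of the same pathway, stood still between 4 h and 24 h, at -0.60, -0.49 and -0.65 at 4 h and -0.54, -0.68 and -0.57 at 24 h, and then reached -1.40, -1.31 and -1.25 at 48 h. The 48 h step of Bub1 was -0.72 ± 0.07 (standard error; limma adjusted p = 9.6e-06). Mad2l1, which encodes Mad2, was not called at 4 h (0.07) and was at -1.01 at 24 h and -1.54 at 48 h. Bub3, the WD-repeat partner of Bub1 and BubR1, was at -0.47 at 48 h.

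Of the 5 genes of mitotic exit, 4 were lower and 1 was higher at 4 h, against 30.2% and 19.5% of all genes. The 1 higher call is near that share and is not read as a trait of the group. Espl1, which encodes separase, the protease that cuts cohesin, read -0.30, -0.20 and -0.19 at 2 h, -1.13, -1.14 and -1.02 at 4 h, -1.38, -1.34 and -1.35 at 24 h, and -1.62, -1.32 and -1.34 at 48 h. Its inhibitor securin, encoded by Pttg1, fell mostly after 4 h: it gave -0.41, -0.33 and -0.39 at 4 h, -1.32, -1.12 and -1.16 at 24 h and -1.69, -1.59 and -1.55 at 48 h. Both were thus at least 2-fold lower by 24 h on every array, with Espl1 there already at 4 h.

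Cdc20, the activator of the APC/C, was at -0.22, -0.26 and -0.19 at 2 h and at -1.004, -0.95 and -0.99 at 4 h. It did not fall further by 24 h (-0.97, -0.92 and -0.93) and was at -1.16, -1.30 and -1.36 at 48 h. Ube2c, the ubiquitin-conjugating enzyme of the APC/C, also fell between 24 h and 48 h. It read -0.57, -0.68 and -0.57 at 24 h and -1.43, -1.38 and -1.23 at 48 h, a further change of -0.74 ± 0.06 (standard error; limma adjusted p = 3.3e-06).

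Fbxo5, which encodes Emi1, an inhibitor of the APC/C, rose first: its arrays gave 0.16, 0.09 and 0.29 at 2 h and 0.95, 0.78 and 0.90 at 4 h. At 24 h they stood at -0.63, -0.68 and -0.60 and at 48 h at -0.96, -0.99 and -0.88. The 4 h mean was 0.88 ± 0.08 (n = 3; limma adjusted p = 4.9e-09), which under median centring was -0.06, or 0.53 above the median of all genes, and the change between 24 h and 4 h was -1.51 (limma adjusted p = 1.1e-09). At 2 h the rise of 0.18 turned to -0.08 relative to that median. Median centring leaves in any trend with probe brightness, whose part in these values was not tested.

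Smaller early rises were seen in other members, on dim probes (mean log2 intensity 6.65 for Anln, 7.77 for Top2a and 7.02 for Aurkb). At 4 h the dimmer probes of Ccna2 (0.29) and Ttk (0.003) read above the brighter ones (-0.13 and -0.51). That of Plk1 (-0.96 against -0.84) and the second of Racgap1 (-0.68 against -0.32) read below. The part of probe brightness in the early rises was not tested. Anln, which encodes anillin, the scaffold of the contractile ring, read 0.51, 0.12 and 0.42 at 4 h, against -0.13, -0.08 and 0.09 at 2 h. Top2a, the topoisomerase that untangles chromosomes, gave 0.21, 0.13 and 0.26 at 2 h and 0.37, 0.19 and 0.27 at 4 h. Aurkb, the kinase of the chromosomal passenger complex, read 0.19, 0.18 and 0.38 at 2 h and 0.21, 0.30 and 0.20 at 4 h. At 4 h these 3 and Kif2c and Mybl2 all remained above the median of all genes under median centring, by 0.65, 0.08, 0.33, 0.12 and 0.19. Without subtracting that median only Anln stayed above 0. The dim members Hmmr, Cenpf and Smc2, not called at 4 h, stood 0.46, 0.50 and 0.55 above the same median. Median centring leaves in any trend with brightness and thus cannot decide on these rises. Anln, Top2a, Aurkb, Kif2c and Mybl2 were each below 0 on every array at 24 h. The falls of Aurkb (-0.22) and Kif2c (-0.13) there were small on these dim probes, and were -0.56 and -0.37 on the scanner's processed signals. Aurkb lost its call without the second 24 h array (limma adjusted p = 0.056), and Kif2c without any 1 of the 3 (0.074, 0.12 and 0.11).

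The other passenger genes, Incenp, Cdca8 and Birc5, were all called lower at 24 h and 48 h, against 29.2% and 30.3% of all genes. Incenp, the scaffold, was at -0.69 at 24 h and -0.98 at 48 h, and Cdca8, which encodes borealin, was at -0.71 at 24 h and at -1.15, -0.91 and -0.94 on the arrays at 48 h. Birc5, which encodes survivin, gave only bounds, since none of its 12 forskolin signals rose well above background. These were 1.13-fold lower at 2 h, 1.15-fold at 4 h, 1.17-fold at 24 h and 1.19-fold at 48 h (limma adjusted p of 0.0083, 0.00089, 0.00036 and 7.6e-05). Under median centring, however, it stood 0.48, 0.41, 0.25 and 0.21 above the median of all genes. Such a bound sets the reference mean against the lowest signal called well above background, and the reference signal itself passed on 1, 3, 2 and 1 of 3 arrays at these times. Only at 4 h did the reference pass on every array, so the values at other times are not firm bounds. Birc5 was kept through that channel alone, which favours a lower call, so its calls are not read as a fall. For Anln at 48 h, also not above background in the forskolin channel, the bound was 1.30-fold lower (limma adjusted p = 0.00016).

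Of the 6 genes of chromosome structure, 5 were lower at 24 h and 6 at 48 h, against 29.2% and 30.3% of all genes. Ncapd2 was called from 4 h on. Ncapd2, a condensin subunit, reached -1.05 at 48 h, Ncaph -0.81, Smc4 -0.80, Mki67, which encodes the proliferation marker Ki-67, -0.56, Top2a -0.40 and Smc2 -0.16; on the scanner's processed signals Ncaph, Mki67 and Smc2 gave -1.36, -1.19 and -0.75, and under median centring Smc2 was 0.25 above the median of all genes. Smc4 spread widely at 24 h, where its arrays gave -0.13, -0.74 and -0.34. Among the genes of cytokinesis, Ect2, which activates RhoA at the cleavage furrow, was at -0.77, -0.98 and -0.95 at 24 h and -1.47, -1.44 and -1.46 at 48 h. Prc1, which bundles midzone microtubules, was at -0.59 at 48 h. Racgap1, the partner of Kif23 in centralspindlin, was at -0.32 at 4 h, -0.23 at 24 h and -0.24 at 48 h.

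Several members had more than 1 probe, and their probes are shown where they disagreed. The Ccna2 probe used here lies at chr2:123008021-123008080 and the dimmer one at chr2:123010550-123010791, a span longer than the probe. The Ect2 probe used here lies at chr2:112914349-112914408 and the dimmer one at chr2:112945723-112945782 (all rn3, minus strand, per the array files). Here the whole probe is in lower case, 5′ to 3′, with no part marked.
Ccna2 brighter probe: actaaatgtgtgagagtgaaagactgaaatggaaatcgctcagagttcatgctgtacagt
Ccna2 dimmer probe: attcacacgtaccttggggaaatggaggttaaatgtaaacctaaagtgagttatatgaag
Ect2 brighter probe: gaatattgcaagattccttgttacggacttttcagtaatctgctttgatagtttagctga
Ect2 dimmer probe: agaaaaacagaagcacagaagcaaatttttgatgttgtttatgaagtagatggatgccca

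At 4 h the Ccna2 probes were called in opposite directions, -0.13 for the brighter and 0.29 for the dimmer, so its early direction is uncertain, while both were lower at 24 h (-1.32 and -0.62) and 48 h (-1.71 and -0.83). Ect2 gave -1.46 with the brighter and -0.25 with the dimmer probe at 48 h, Ttk -1.49 and -0.37, and Ccnb1 -1.55 and -0.61. Of 10 members with several kept probes, the brightest had the largest fall at 48 h in 8. The correction used here adds an offset of 50 to both channels, which shrinks the ratios of dim probes by construction. On the scanner's processed signals, which carry no such offset, the Ect2 probes gave -1.59 and -1.53 at 48 h, the Ttk probes -1.77 and -1.08 and the Ccnb1 probes -1.60 and -1.16.

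The same held across members. The 26 dimmer members had a median of -0.58 at 48 h and the 27 brighter ones -1.38, but with the processed signals the medians were -1.36 and -1.46. Differences in size between bright and dim members, such as Bub1b at -1.65 and Prc1 at -0.59, are not read as differences between the genes here: with processed signals they were -1.70 and -1.59. The brightest of 3 Racgap1 probes gave in both settings, at 48 h, -0.24 and -0.21. Its second probe gave -0.68 at 4 h, -0.36 at 24 h and -0.51 at 48 h, and its dimmest gave -0.21, -0.07 (not called) and -0.19.

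**Figure D4:**
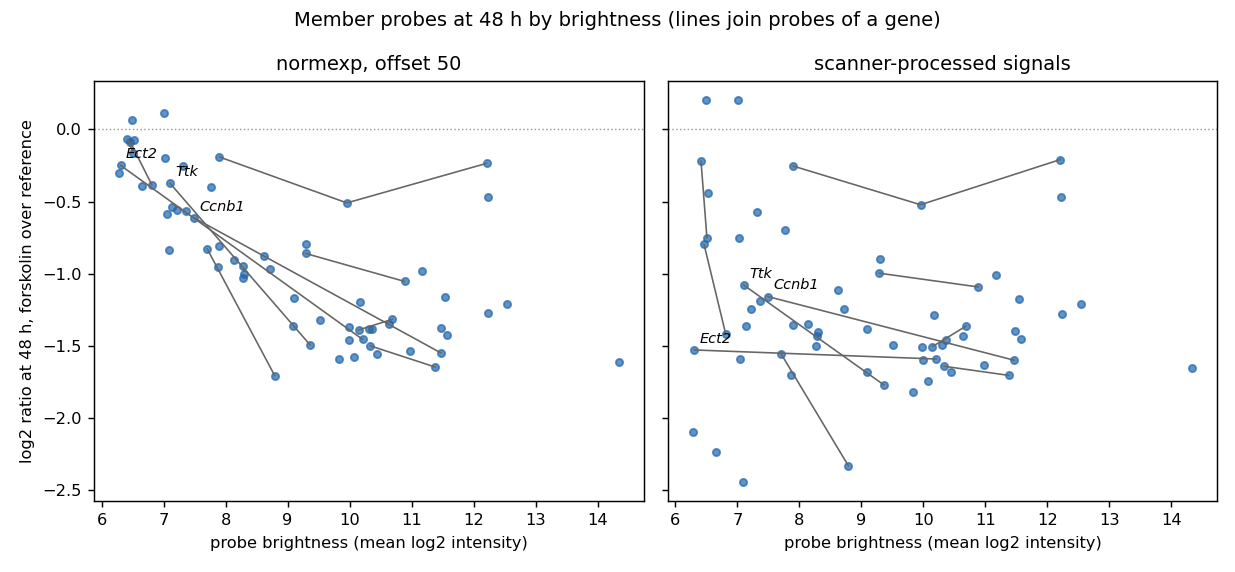
Log2 ratio of forskolin over reference at 48 h (vertical axis) against mean log2 intensity of the probe (horizontal axis) for every kept member probe, after normexp with an offset of 50 (left) and on scanner-processed signals (right); lines join probes of a gene. Falls shrink towards dim probes on the left, where the dim Ect2 probe reads -0.25, and less so on the right, where it reads -1.53.

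Other genes of the same machinery, from lists of genes outside the 57, are given for comparison, beside 29.2% of all genes called lower at 24 h and 30.3% at 48 h. Of 16 other kinetochore genes measured, 13 were lower at 24 h and 15 at 48 h, none higher, with a median of -0.71 at 48 h. Of the centromere proteins, Cenpu was at -1.37 at 24 h and -1.80 at 48 h, Cenpl at -1.08 and -0.96, and Cenpq at -0.86 and -1.45. Of 10 other checkpoint, entry and exit genes, 9 were lower at both times. These included Pbk, a mitotic kinase, at -1.63, and Wee1 and Pkmyt1, kinases that inhibit Cdk1, at -1.20 and -1.04 at 48 h, so that inhibitors of Cdk1 and Cdk1 itself were lower. Of 18 other spindle, centrosome and cytokinesis genes, 12 were lower and 1 was higher at 24 h, and 15 and 1 at 48 h. Aspm, a spindle pole protein, was at -1.13 at 4 h and -1.29 at 24 h, beside -1.09 and -1.36 for Espl1. The motor Kif15 and the spindle protein Dlgap5 were at -0.98 and -0.96 at 24 h. Numa1, also at the poles, was the 1 called higher, at 0.20 at 24 h and 0.21 at 48 h.

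Of 11 measured genes of the APC/C, 2 were lower and 3 higher at 24 h and 3 were lower and 1 higher at 48 h, beside 29.2% of all genes lower and 24.1% higher at 24 h and 30.3% and 26.9% at 48 h, so the share called was not above that of all genes. Their median was -0.01 at 48 h, beside -1.27 for Cdc20, the activator of the complex. Among the subunits Anapc1 was at -0.28 at 24 h and -0.86 at 48 h and Anapc5 at -0.27 and -0.40, while Anapc7 (0.30 and 0.11) and Anapc2 (0.29 and 0.56) were above 0. Of 10 cohesin genes, 4 were lower at 24 h and 7 at 48 h, with a median of -0.31, and Stag1, Rad21 and Pds5b were at -1.19, -0.83 and -0.60. All 3 other condensin genes were lower at 48 h, led by Ncapg2 at -1.61. Of 12 DREAM, MuvB and E2F genes, 5 were lower and 2 higher at 48 h, a share called near the 57.2% of all genes. The lowest of these at 48 h was E2f8, a repressor of the E2F family, at -2.04.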

How the data were processed

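Agilent 2-channel rat arrays of 12 RNA samples were used. Per the file headers, they were scanned with Feature Extraction 9.5.1.1, and the deposited files give the intensity of each spot and of its local background in both channels, its processed intensity, and other spot flags and probe annotation with rn3 positions. The authors' deposited log2 values ran as red over green, were turned here, and correlated at 0.998 or more with the ratios used here on every array. Per the submitters' processing notes limma was used, and the authors' settings are not given in the sources used here.

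Background was removed by normexp with an offset of 50, and ratios were normalized by loess within arrays, in limma (3.58.1), R (4.3.3) and the data.table package (version 1.17.8). For channel levels and bounds only, mean intensities were then quantile-normalized between arrays (Aquantile in limma). Probes were kept that stood well above background in either channel on every array of some time point, and the brightest kept probe stood for a gene. A mean per time was fitted with lmFit and eBayes (8 residual degrees of freedom) and p-values were adjusted by Benjamini-Hochberg over 17753 genes. The fit was also run on simulated data with independent noise, which held no dye, brightness or slide effect and so cannot test for these. Alternatives were no background correction, no offset, processed signals, median centring, no filter, the mean of probes, the deposited values, a block on the replicate number, and each array left out. The precision is limited by the number of arrays.

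The members and lists were chosen with earlier results of these data known. Values on every array are given for the 12 members with the largest change at 24 h, those called higher at 24 h or 48 h, and the 4 largest each way at 2 h, at 4 h and between 48 h and 24 h. Other genes are named from the 3 largest called changes each way at 24 h in each list.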

Additional observations from a re-analysis of the deposited data

Results flagged for a closer look

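In 7 members the change had opposite called signs at successive times, and the step itself was called by limma with Benjamini-Hochberg adjustment. The share of all genes that changed sign in this way was not counted. At 4 h, 6 of 53 members were called higher, against 19.5% of all genes. Kif4, a chromokinesin, was 0.13 at 2 h and -0.15 at 4 h, a step of -0.29 (adjusted p = 0.0042); relative to the median of all genes under median centring its 2 h value was -0.12. The other 6 were higher at 4 h and lower at 24 h. The part of probe brightness in these early rises was not tested. For Fbxo5 the step between 24 h and 4 h was -1.51 (adjusted p = 1.1e-09), for Anln -0.64 (adjusted p = 7.6e-05) and for Aurkb -0.45 (adjusted p = 0.00066). For Top2a it was -0.45 (adjusted p = 6.1e-05), for Mybl2 -0.39 (adjusted p = 0.00025) and for Kif2c -0.28 (adjusted p = 0.0049).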

How the results depend on the processing

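The counts of called members and the directions of the members described array by array were recomputed under each alternative. Median centring without loess moved the median of all genes to -0.58, -0.58, -0.45 and -0.45 at 2, 4, 24 and 48 h, and then 48 members were called at 2 h, all lower, as at 4 h, 5 for 4 h against 2 h, 20 for 24 h against 4 h and 7 for 48 h against 24 h. Relative to that shift the members' medians were -0.53, -0.67, -1.02 and -1.54, and called members changed sign in 3, 1, 2 and 2 cases (Kif4, Birc5 and Fbxo5, then Birc5, then Birc5 and Hmmr, then Birc5 and Smc2). With loess the medians relative to all genes were -0.01, -0.15, -0.61 and -1.01. Under median centring at 2 h, the bright Pttg1 and Cdc20 (log2 intensity 14.34 and 12.23) gave -1.55 and -1.50. The dim Hmmr and Birc5 (6.49 and 6.28) gave -0.08 and -0.09. Values relative to the median of all genes may thus carry probe brightness, and its part in single genes was not tested. Cdc25b at 24 h reversed to -0.0054 under median centring. Kif2c at 24 h lost its call without the filter (adjusted p = 0.068).

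With each array left out, calls numbered 11 to 23 at 2 h, 33 to 39 at 4 h, 48 to 51 at 24 h and at 48 h, 17 to 27 for 4 h against 2 h, 38 to 43 for 24 h against 4 h, 30 to 35 for 48 h against 24 h and 49 throughout for late against early times. Leaving out replicate 3 at 2 h gave the 11, and replicate 3 at 4 h the 17. Without replicate 2 of 24 h Aurkb at 24 h was -0.19 (adjusted p = 0.056), and without replicate 2 or 3 of 48 h it was -0.15 at 48 h (adjusted p = 0.11 and 0.092). Kif2c at 24 h lost its call without any 1 of the 3 arrays of that time (adjusted p = 0.074, 0.12 and 0.11).

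With the replicate number, which is also the slide, as a block, the counts were 25, 40, 51 and 51 at 2, 4, 24 and 48 h, and 29, 44 and 39 for the successive steps, all within 1.5 times of those without it, and no member described array by array lost its call at 24 h or 48 h; the 48 h count then held 1 higher call. Deviations of arrays with the same number correlated at 0.052 to 0.474 (18 pairs), not all over 0.1, and 8 of the 12 arrays correlated best with one of their own number, a hint from the data and not the design. Within slides 1, 2 and 3 the members' median at 48 h was -1.01, -1.12 and -1.06. Dim probes limit the sizes, as given above for Ect2 and Birc5, and the cause of the shifts under median centring was not tested.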
